A study of Mus musculus with 11 samples.

Results

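The MYC, MAX and MXD network is the set of basic helix-loop-helix leucine zipper factors that share the partner MAX and bind E-box DNA. The 10 genes described here were taken by symbol from the deposited count tables, which list 23284 genes: Mycn, Myc, Mycl1, Max, Mxd1, Mxi1, Mxd3, Mxd4, Mnt and Mga. All 10 passed the filter on low counts that left 15237 genes for testing. Poly(A) RNA was sequenced from 11 mouse small cell lung tumors, a neuroendocrine lung cancer. Every tumor carried the same labelled genotype, which joins alleles of Rb and p53 to the transgenes TRE-MYCN, a MYCN gene under a doxycycline-responsive element, and LSL-RTTA, a transactivator behind a Cre-removable stop cassette. Doxycycline was present for the 7 tumors of the MYCN ON group and had been stopped for 7 days in the 4 tumors of the MYCN OFF group. The labels give no mouse age, drug dose, Cre driver or animal of origin, so p-values measure only how these 11 tumors spread. No group without the transgene received doxycycline, so effects of the drug and of MYCN cannot be told apart.

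MYC, MYCN and MYCL activate genes as heterodimers with MAX. MXD proteins and MNT compete for MAX and recruit SIN3 corepressor complexes to the same E-boxes. MGA carries a T-box domain as well and brings MAX into a Polycomb-type repressor complex called PRC1.6. In small cell lung cancer, single members of the MYC family are recurrently amplified, and MAX itself is a tumor suppressor in some neuroendocrine tumors.

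Libraries held 8951733 to 13123838 reads counted over genes. Levels below are CPM, reads scaled to a common library size with TMM factors, and a gene was called at an edgeR adjusted p below 0.05. The 10 neuroendocrine markers were detected as a group in every tumor, while Neurod1 was at 0 in MYCN ON tumor 1. They summed to 2161 to 3692 CPM in MYCN ON and 1543 to 7766 CPM in MYCN OFF, with 1 called higher and 1 lower. Lung tissue markers set some tumors apart. Surfactant gene Sftpc exceeded 100 CPM in MYCN ON tumors 3 and 5 and in MYCN OFF tumors 1, 3 and 4. The 8 lung epithelial markers summed to 2.21 to 3223 CPM in MYCN ON and to 17.1 to 31629 CPM in MYCN OFF, with 0 of 8 called by edgeR (4 lower at an unadjusted p below 0.05), and Sftpb, Sftpd and Lamp3 were at 0 in at least 1 tumor. The 10 immune markers summed to 243 to 1022 CPM in MYCN ON and to 464 to 7252 CPM in MYCN OFF, with 6 of 9 tested called lower in MYCN ON, and Cd3e was at 0 in at least 1 tumor. Endothelial markers summed to 37.9 to 137 against 48.3 to 692 CPM, with 3 of 5 lower in MYCN ON. Fibroblast markers, at 373 to 1635 against 382 to 2307 CPM, had 0 of 5 called by edgeR (2 lower at an unadjusted p below 0.05). In these bulk samples a smaller number of cells of a type and less RNA per cell cannot be told apart.

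In the network, 5 genes were higher in MYCN ON (Mycn, Max, Mxi1, Mnt and Mga), 2 were lower (Myc and Mxd1) and 3 were not called (Mycl1, Mxd3 and Mxd4). Across all genes tested, 29.4% were called, 16% as higher and 13.4% as lower. That split of 2437 higher to 2038 lower became 1697 to 2894 with upper quartile factors and 1317 to 3347 with library totals, which moved the median log2 fold change of all genes by -0.21 and -0.31. With 1 tumor left out the calls ranged from 1674 to 2955 higher and from 1015 to 2438 lower, the fewest lower calls being without MYCN OFF tumor 1. The median log2 fold change of the 10 genes was 0.54, against 0.0023 for all genes tested. The CPM ranges of the groups did not overlap for 5 of the 10 genes, against 16.8% of all genes. Mycn, Max and Mxi1 lay wholly above in MYCN ON (11.4% of all genes did), and Myc and Mxd1 wholly below (5.41%). The members were chosen with earlier results of these data known, so the counts describe these 10 genes only.

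**Figure D1:**
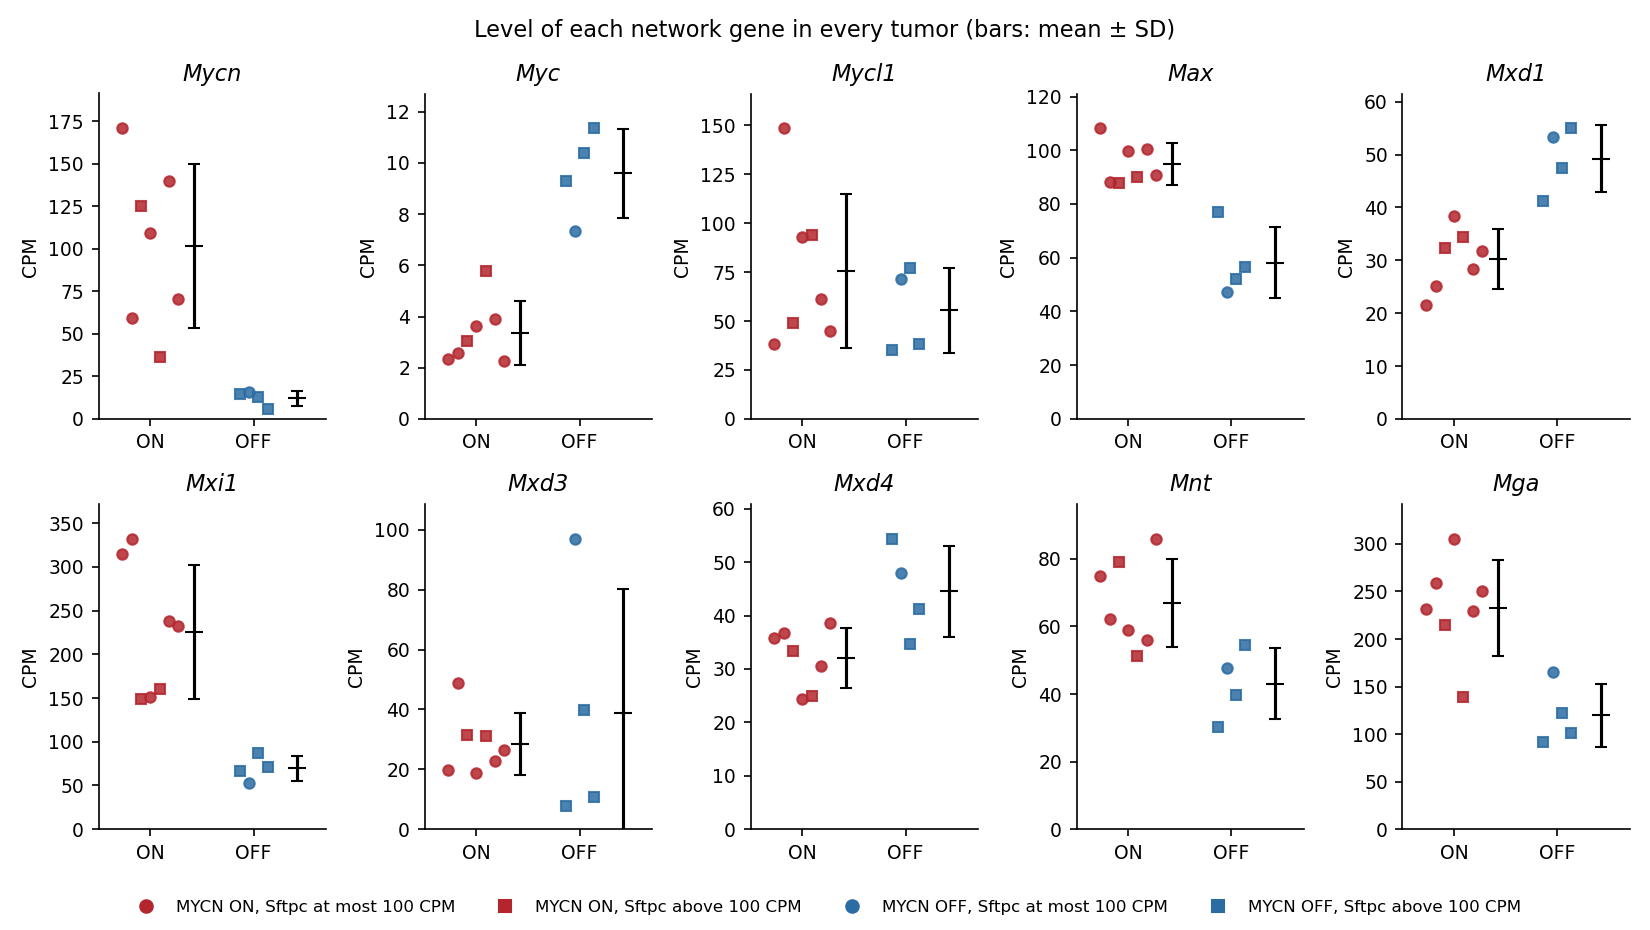
Level of each network gene (vertical axis, CPM) in the 7 MYCN ON and 4 MYCN OFF tumors, 1 point per tumor, with bars for the mean ± SD, the Mxd3 bar being cut at 0. Squares are tumors with Sftpc above 100 CPM. The groups do not overlap for Mycn, Myc, Max, Mxd1 and Mxi1.

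Because the dimers of this network bind E-boxes, the RefSeq promoter windows of its own genes (GRCm38.p6, 250 bases before to 50 after the annotated start) were searched on both strands for the canonical E-box CACGTG and the related CACGCG, which do not overlap each other. Windows were present for 9 members, 11 windows in all. CACGTG was found in 3 of the 11 (Max, Mnt and Mxd4), against 7.15% of all 32851 windows. CACGCG was found in 2 (Mycl1 and Mga), against 9.27%. Stretches around each match follow on the strand of the gene, with the match in capitals, and 2 stretches before starts of Mxi1, the MXD gene with the largest difference between the groups, show windows without a match. The read counts were made on another build (mm9), so these positions belong to RefSeq and not to the deposited data.
Max, chr12:76962234-76962263, minus strand: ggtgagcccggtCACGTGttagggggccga
Mnt, chr11:74830754-74830853, plus strand: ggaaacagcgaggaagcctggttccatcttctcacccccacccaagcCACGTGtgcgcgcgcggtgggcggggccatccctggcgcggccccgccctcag
Mxd4, chr5:34187861-34187960, minus strand: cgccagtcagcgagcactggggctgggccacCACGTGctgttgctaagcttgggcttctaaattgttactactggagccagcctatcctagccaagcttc
Mga, chr2:119897128-119897227, plus strand: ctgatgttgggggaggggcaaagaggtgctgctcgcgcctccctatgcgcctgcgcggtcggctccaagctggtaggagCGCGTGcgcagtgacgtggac
Mycl1, chr4:122995831-122995930, plus strand: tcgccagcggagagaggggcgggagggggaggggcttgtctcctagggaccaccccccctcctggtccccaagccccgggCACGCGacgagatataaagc
Mxi1, upstream start, chr19:53310406-53310505, plus strand: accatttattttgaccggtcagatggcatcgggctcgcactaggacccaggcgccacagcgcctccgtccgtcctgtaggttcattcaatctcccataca
Mxi1, downstream start, chr19:53329313-53329412, plus strand: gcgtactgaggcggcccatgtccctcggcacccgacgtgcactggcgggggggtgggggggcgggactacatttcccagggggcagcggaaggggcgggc
With the first transcribed base as position 0, the match began at -3 in Max, -123 in Mnt, -219 in Mxd4, -21 in Mga and -20 in Mycl1. Genes with a match included 3 that were higher in MYCN ON (Max, Mnt and Mga) and 2 that were not called (Mxd4 and Mycl1). The 4 genes with windows but no match were Mycn and Mxi1 (higher), Mxd1 (lower) and Mxd3 (not called). A relation of match and direction was not tested, and 9 genes are too few to show one or its absence. A match is a run of letters and not a measured binding site, and an absent match says only that these letters are not in this window.

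Among the MYC family, Mycn carried the largest difference, in the direction the transgene sets. MYCN ON tumors held 36.5 CPM at the lowest, 109 at the median and 171 at the highest. The MYCN OFF tumors 1 to 4 held 14.5, 15.7, 12.97 and 5.63 CPM. Every MYCN ON tumor lay above every MYCN OFF tumor, although MYCN ON tumor 5 was only 2.33 times the highest MYCN OFF value. The fitted level was 8.33-fold higher in MYCN ON (95% interval of the log2 fold change 2.04 to 4.07). Within MYCN ON the raw Mycn counts ran from 468 to 1594 reads. The labels do not give the species of the transgene, and reads of the transgene and of the mouse gene cannot be told apart in these counts.

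Myc, the broadly expressed paralog, lay in the opposite order. Its level was 2.26 CPM at the lowest, 3.06 at the median and 5.78 at the highest in MYCN ON, and 9.28, 7.33, 10.4 and 11.4 CPM in MYCN OFF tumors 1 to 4. No MYCN ON tumor reached the lowest MYCN OFF tumor. The fitted level was 2.85-fold higher in MYCN OFF, a log2 fold change of -1.51 with an SE of 0.34 (edgeR adjusted p = 0.00842). These levels rest on 20 to 74 reads per MYCN ON tumor and 74 to 154 per MYCN OFF tumor. Myc was highest within MYCN ON in tumor 5, which also had the highest immune marker sum of that group, 1022 CPM. MYCN OFF tumor 2, at 7.33 CPM of Myc, had an immune sum of 464 CPM. The part of immune cells in the Myc difference was not tested. The log2 fold change was -1.34 in the tumors with Sftpc at most 100 CPM (5 MYCN ON, 1 MYCN OFF) and -1.20 in the others (2 and 3). As a covariate in edgeR, the lung score gave a log2 fold change of -1.21 (adjusted p = 0.0523) and the immune score one of -1.08 (adjusted p = 0.0897), neither of them called.

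Mycl1, which encodes L-MYC, a paralog known from neuroendocrine lung tumors, was not called (log2 fold change 0.45, 95% interval -0.40 to 1.30, edgeR adjusted p = 0.409). It ran from 38.1 to 148 CPM in MYCN ON, with a median of 61.4, and stood at 35.0, 71.5, 77.0 and 38.3 CPM in MYCN OFF. The groups overlapped, with 3 MYCN ON tumors above the highest MYCN OFF tumor. MYCN ON tumors 2 and 5 held the highest Mycl1 of their group, 148 and 94.1 CPM, and its lowest Mycn, 59.6 and 36.5 CPM. MYCN ON tumor 4 came close to tumor 5 at 92.8 CPM of Mycl1, but with 109 CPM of Mycn. Tumors 2 and 5 of MYCN ON also held the highest Neurod1 of all 11 tumors, 247 and 158 CPM. Elsewhere Neurod1 was at most 53.7 CPM, and it was 19.2 CPM in MYCN ON tumor 4. Neurod1 was singled out after its values were seen.

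Levels of different genes were set side by side as CPM per kilobase of annotated exon. The length used for Mycn is that of the mouse gene, and how much of it the transgene matches is not known. Shares, sums and ratios that include Mycn, here and below, are less certain for that reason. In MYCN ON, Mycn made up 60.4% ± 20.5 (SD, n = 7) of the length-scaled sum of Mycn, Myc and Mycl1, Mycl1 37.0% ± 19.6 and Myc 2.55% ± 1.46. In MYCN OFF the shares were 18.7% ± 6.95 (SD, n = 4) for Mycn, 63.2% ± 8.74 for Mycl1 and 18.1% ± 7.25 for Myc. On this scale Mycl1 was the leading paralog in all MYCN OFF tumors (51.6% to 70.4%), and also in MYCN ON tumors 2 and 5 (64.6% and 62.6%). The Mycn to Myc ratio ran from 5.52 in MYCN ON tumor 5 to 64.2 in tumor 1, and from 0.433 to 1.86 in MYCN OFF. The sum of the 3 paralogs was 58.3 ± 13.4 CPM per kilobase in MYCN ON and 23.4 ± 6.55 in MYCN OFF, with the lowest MYCN ON value of 38.2 above the highest MYCN OFF value of 29.9. These sums carry no test, since the members were chosen with results known.

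**Figure D2:**
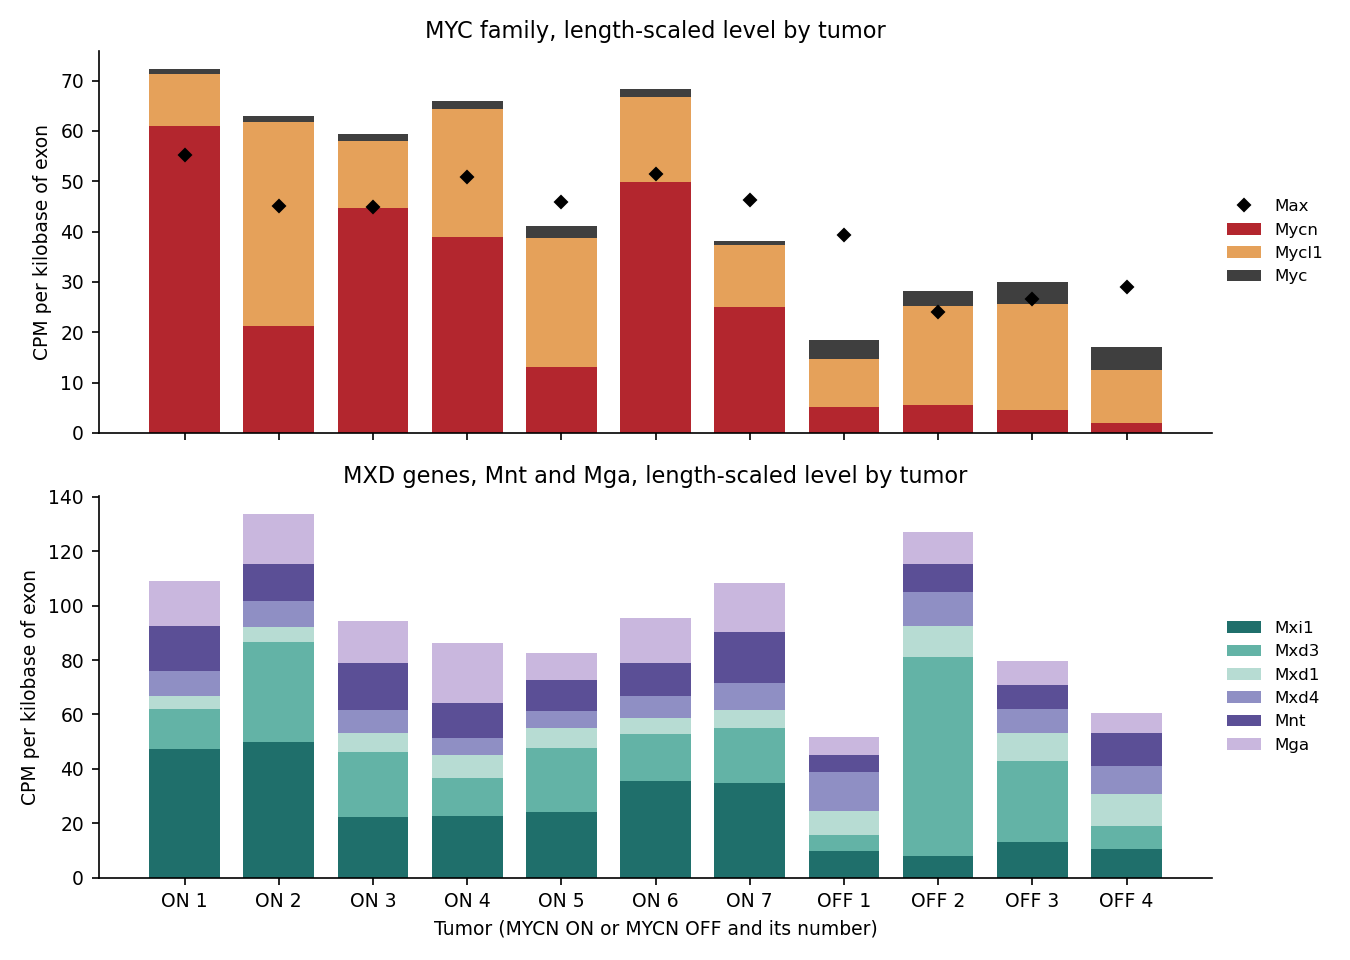
Length-scaled levels (vertical axis, CPM per kilobase of exon) in each tumor, stacked for the MYC family with Max as diamonds (top) and for the MXD genes, Mnt and Mga (bottom). The MYC family sum is lower in the 4 MYCN OFF tumors (17.1 to 29.9) than in the 7 MYCN ON tumors (38.2 to 72.3), and the lower panel overlaps between the groups.

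Max, the partner that these factors share, separated the groups, with all MYCN ON tumors above all MYCN OFF tumors. It ran from 87.8 to 108 CPM in MYCN ON, with a median of 90.8, and stood at 77.1, 47.1, 52.2 and 56.6 CPM in MYCN OFF. The log2 fold change was 0.71 (95% interval 0.36 to 1.05, edgeR adjusted p = 0.00766). The gap was narrowest to MYCN OFF tumor 1, the tumor with the most lung marker reads. Relative to its mean, Max varied least of the 10 genes within MYCN ON (SD over mean 0.082). On the length-scaled level it stood at 48.5 ± 3.99 CPM per kilobase against 29.7 ± 6.72 in MYCN OFF. Its length-scaled mean was the highest of the network in both groups. In MYCN OFF that order was not clear of the spread, since Mxd3 followed at 29.3 ± 31.2. The ratio of Max to the MYC family sum was below 1 in 5 of 7 MYCN ON tumors and ran from 0.717 to 1.21, while it ran from 0.854 to 2.12 in MYCN OFF. With library totals as the only scaling Max missed the threshold (log2 fold change 0.40, edgeR adjusted p = 0.0606). Relative to the median of all genes under that scaling, Max was at 0.71.

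Of the 4 MXD genes, Mxi1 was higher in MYCN ON, Mxd1 was lower, and Mxd3 and Mxd4 were not called. Mxi1, a MAX partner and SIN3 recruiter, ran from 149 to 332 CPM in MYCN ON, with a median of 232, and stood at 66.3, 53.1, 87.4 and 70.9 CPM in MYCN OFF. Every MYCN ON tumor lay above every MYCN OFF tumor. The fitted level was 3.25-fold higher in MYCN ON (95% interval of the log2 fold change 1.09 to 2.30, edgeR adjusted p = 0.00173). In this fit it was the second largest difference of the network after Mycn. Under some alternatives Myc came before Mxi1, among them the replicate block (log2 fold change -1.74 against 1.68) and limma voom with quality weights (-1.64 against 1.43). Mxi1 stayed called with each tumor left out in turn and when the lung score was a covariate (log2 fold change 1.45, edgeR adjusted p = 0.0218). With the immune score as a covariate it missed the threshold (log2 fold change 1.36, edgeR adjusted p = 0.05). Mxi1 has several annotated starts, and the counts per gene do not separate the transcripts. A gene on the opposite strand overlaps 194 exonic bases of it in the reference annotation.

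Mxd1, the founding MXD gene that is known to rise when cells leave the cycle and differentiate, moved against Mxi1. It ran from 21.5 to 38.4 CPM in MYCN ON, with a median of 31.8, and stood at 41.2, 53.4, 47.5 and 55.0 CPM in MYCN OFF. The highest MYCN ON tumor lay just below the lowest MYCN OFF tumor. The fitted level was 1.63-fold higher in MYCN OFF, a log2 fold change of -0.70 with an SE of 0.18 (edgeR adjusted p = 0.0141). The part of lung and immune tissue in this difference was not tested. The log2 fold change stayed at -0.67 with the lung or the immune score as a covariate, where it missed the threshold (edgeR adjusted p = 0.0616 and 0.0835).

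Mxd4, a MAX partner of resting and differentiated cells, was 24.3 to 38.6 CPM in MYCN ON, with a median of 33.4, and 54.4, 47.9, 34.7 and 41.2 CPM in MYCN OFF. The groups met in MYCN OFF tumor 3. The log2 fold change of -0.47 had an interval of -0.88 to -0.067 at an unadjusted p of 0.0261, and the edgeR adjusted p of 0.0743 missed the threshold. DESeq2 called it (log2 fold change -0.56, adjusted p = 0.019), as did edgeR with RLE factors (adjusted p = 0.0423), upper quartile factors (0.0139) and library totals (0.00748), and with the stricter filter (0.0395). Relative to the median of all genes its log2 fold change was -0.48 with TMM, RLE or upper quartile factors and -0.47 with library totals. Under every alternative that was run, Mxd4 was lower in MYCN ON. Another gene on the opposite strand overlaps 514 of its exonic bases.

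Mxd3, which is known as the MXD gene of proliferating cells in S phase, did not separate the groups but separated the MYCN OFF tumors from each other. It stood at 7.84, 97.1, 39.7 and 10.9 CPM in MYCN OFF tumors 1 to 4 and ran from 18.7 to 48.8 CPM in MYCN ON. The MYCN OFF group held both the highest and the lowest values of all 11 tumors. The log2 fold change was -0.45, with an interval of -1.68 to 0.78 (edgeR adjusted p = 0.574), and it became 0.55 without MYCN OFF tumor 2. The summed CPM of 5 proliferation markers (Mki67, Top2a, Ccnb1, Pcna and Mcm2) stood at 741, 3464, 2148 and 948 in MYCN OFF tumors 1 to 4, which is the same order as Mxd3. In MYCN ON the highest Mxd3 and the highest proliferation sum, 4852 CPM, were both in tumor 2. The other MYCN ON tumors did not keep that order: tumor 5 held 31.2 CPM of Mxd3 at the lowest sum of its group, 2441 CPM, and tumor 4 held 18.7 CPM, the lowest, at 3072 CPM. MYCN OFF tumor 2 held 1.99 times the Mxd3 of MYCN ON tumor 2 at a lower proliferation sum. It also had the highest sum of 5 muscle markers, 414 CPM against at most 81.8 CPM in the other tumors, whose part in the Mxd3 level was not tested. Mxd3 shares 105 exonic bases with Prelid1 on the opposite strand.

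**Figure D3:**
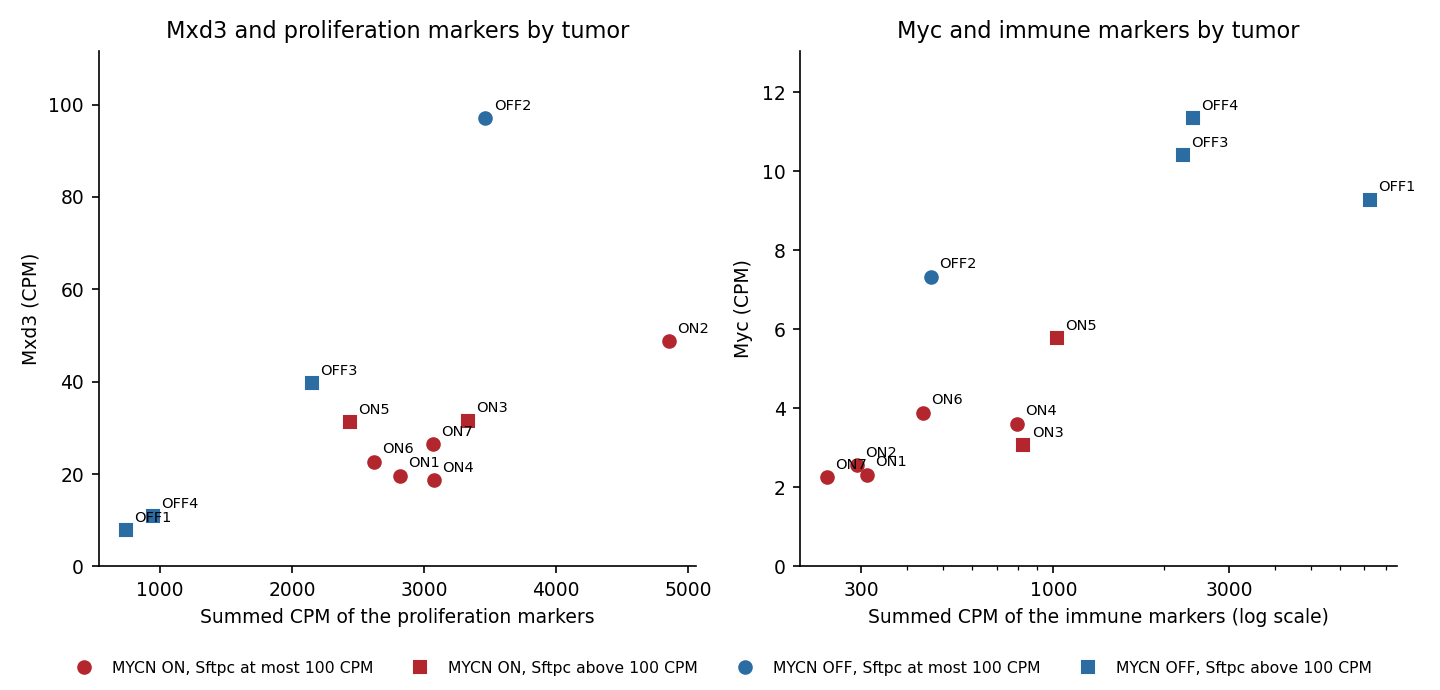
Mxd3 (left, CPM) against the summed CPM of 5 proliferation markers, and Myc (right, CPM) against the summed CPM of 10 immune markers on a log axis, 1 point per tumor labelled by group and number. MYCN OFF tumor 2 stands at 97.1 CPM of Mxd3, and every MYCN OFF tumor has more Myc than every MYCN ON tumor.

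Among the length-scaled shares of the MXD genes, only that of Mxi1 had ranges that did not overlap, and the shares were not tested. Mxi1 made up 47.6% ± 8.79 (SD, n = 7) of the 4 MXD genes in MYCN ON and 20.1% ± 8.60 (SD, n = 4) in MYCN OFF, with the lowest MYCN ON tumor at 36.3% and the highest MYCN OFF tumor at 25.8%. Mxd1 made up 9.89% ± 3.66 against 19.7% ± 7.67, and Mxd4 11.97% ± 1.67 against 22.0% ± 11.2. Mxd3 made up 30.5% ± 7.30 against 38.2% ± 25.5. The leading MXD gene differed among the MYCN OFF tumors: Mxd4 in tumor 1 (36.2%), Mxd3 in tumors 2 and 3 (69.7% and 48.1%) and Mxd1 in tumor 4 (28.6%). In MYCN ON, Mxi1 led in every tumor but tumor 3, where Mxd3 stood at 38.5% and Mxi1 at 36.3%. The length used for Mxi1 joins the exons of 8 transcripts (6656 bases), while its longest transcript has 5036 bases. With the longest transcript of each gene as its length, Mxi1 also led in MYCN ON tumor 3 and MYCN OFF tumor 4. The MXD sum itself overlapped between the groups, at 70.1 ± 16.01 and 61.8 ± 30.6 CPM per kilobase.

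Mnt and Mga, the large MAX partners outside the MXD family, were both higher in MYCN ON. Mnt, which pairs with MAX in most cell types and recruits SIN3, ran from 51.2 to 86.0 CPM in MYCN ON, with a median of 62.2, and stood at 30.2, 47.7, 39.8 and 54.6 CPM in MYCN OFF. MYCN OFF tumor 4 exceeded MYCN ON tumor 5, the lowest of its group. The log2 fold change of 0.64 (SE 0.21, edgeR adjusted p = 0.0372) was the least secure call of the network. Leaving out MYCN ON tumor 1, 2, 3 or 7, or MYCN OFF tumor 1 or 3, ended it at log2 fold changes of 0.50 to 0.65. RLE factors (adjusted p = 0.0533), upper quartile factors (0.121), library totals (0.267), no filter (0.055), the stricter filter (0.0519) and the lung (0.165) or immune (0.392) score as a covariate in edgeR ended it as well. Relative to the median of all genes the log2 fold change stayed at 0.63 to 0.64 under these scalings and at 0.55 to 0.73 under these filters.

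Mga, the scaffold of the PRC1.6 repressor, ran from 139 to 306 CPM in MYCN ON, with a median of 231, and stood at 91.5, 166, 122 and 101 CPM in MYCN OFF. MYCN ON tumor 5 fell below MYCN OFF tumor 2, and the other 6 MYCN ON tumors lay above all MYCN OFF tumors. The fitted level was 1.94-fold higher in MYCN ON (95% interval of the log2 fold change 0.46 to 1.45, edgeR adjusted p = 0.0102). It stayed called with each tumor left out in turn, at 0.85 to 1.16. With the lung score as a covariate the log2 fold change was 0.58 (edgeR adjusted p = 0.0475), and with the immune score 0.63 (adjusted p = 0.127).

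**Figure D4:**
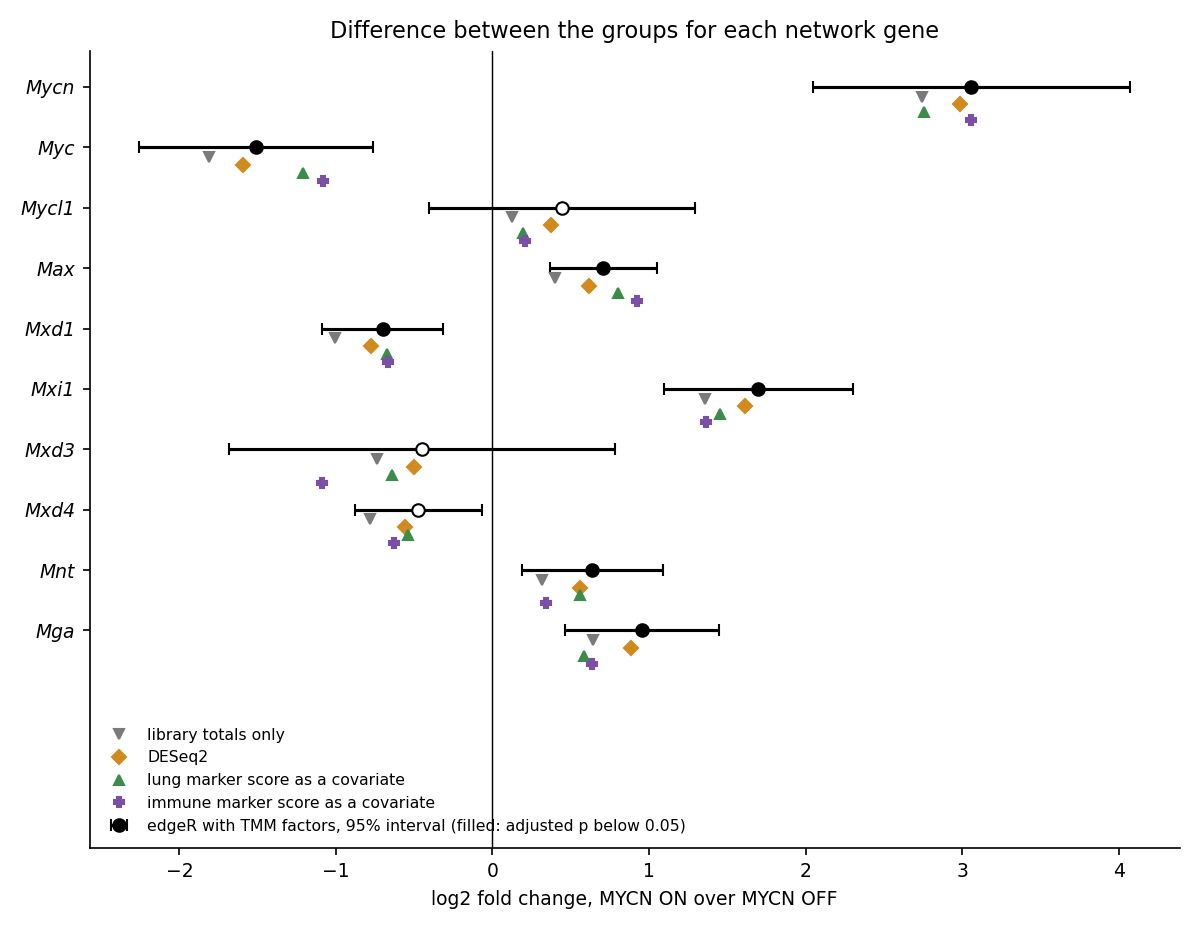
Log2 fold change of each network gene, MYCN ON over MYCN OFF (horizontal axis), by edgeR with TMM factors as circles with 95% intervals, filled where the adjusted p is below 0.05, and under 4 alternatives as coloured symbols. All 10 genes keep their sign under these 4 alternatives, and the 3 open circles are Mycl1, Mxd3 and Mxd4.

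Set against each other, the length-scaled MYC family sum was 0.585 ± 0.148 of the sum of the MXD genes, Mnt and Mga in MYCN ON and 0.310 ± 0.0712 in MYCN OFF. The ranges met, since MYCN ON tumor 7 stood at 0.353 and MYCN OFF tumors 1 and 3 at 0.357 and 0.376. Ordered by the MYCN ON mean in CPM per kilobase, Max (48.5), Mycn (36.3) and Mxi1 (33.9) led, followed by Mxd3 (21.4), Mycl1 (20.7), Mga (16.7), Mnt (14.6), Mxd4 (8.27), Mxd1 (6.49) and Myc (1.37). Mycn and Mxi1 were not separated by their SDs of 17.1 and 11.5, nor were Mxd3, Mycl1, Mga and Mnt from their neighbours. With the longest transcript of each gene as its length, Mxi1 came before Mycn. In MYCN OFF, Mycn (4.35 ± 1.61) and Myc (3.92 ± 0.706) were the lowest and were not separated by their spread.

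The comparison was repeated with marker scores and in subsets of tumors. With the lung score as a covariate in edgeR, 4 of the 10 genes were called (Mycn, Max, Mxi1 and Mga), against 12.6% of all genes. With the immune score, 2 were called (Mycn and Max), against 11.6%. All 10 genes had the same sign in both fits as without a covariate. In the tumors with Sftpc at most 100 CPM (5 MYCN ON, 1 MYCN OFF) and in those above (2 and 3), edgeR called 0% of all genes and none of the 10, so the lack of calls there says nothing about the network. In the first subset all 10 signs were kept and 5 of the 10 genes had an unadjusted p below 0.05, beside 2288 of 15741 genes in all. In the second, 9 signs were kept, Mxd3 being the exception, and 3 of the 10 genes had an unadjusted p below 0.05, beside 3898 of 15690 genes, a share near that of all genes. These signs come from the same tumors as the main comparison and are not independent of it. DESeq2 on all tumors called 8 of the 10, adding Mxd4, against 36.9% of all genes.

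Mycn varied 4.68-fold among the MYCN ON tumors, and the other 9 genes were set against it there. None of the 9 pairs passed an exact two-sided permutation test over 7 tumors after Benjamini-Hochberg adjustment. Max had the largest Pearson r, 0.69 (exact permutation p = 0.0923, adjusted p = 0.449; Spearman rho 0.61, exact permutation p = 0.167, adjusted p = 0.707), and r was 0.65 without MYCN ON tumors 2 and 5, those farthest from the median Mycn level on the log2 scale, on which all these correlations were taken. Mxd3 (r = -0.62, exact permutation p = 0.138) and Mycl1 (r = -0.61, exact permutation p = 0.15) had the same adjusted p of 0.449, with Spearman rho of -0.54 and -0.71 (exact permutation p = 0.236 and 0.0881, adjusted p = 0.707 for both). Without tumors 2 and 5 their r was -0.35 and -0.12. Those tumors hold the lowest Mycn of the group, so leaving them out narrows its range. Whether the relation of Mycl1 to Mycn rested on them cannot be told from this. With 1 tumor left out r ran from -0.71 to -0.51 for Mxd3 and from -0.75 to -0.46 for Mycl1. Mxi1 had an r of 0.15 (exact permutation p = 0.741) and a rho of 0.071 (p = 0.906 by the same exact permutation test). The remaining pairs ran from -0.42 for Myc to 0.52 for Mga, and with 7 tumors only large correlations could have passed.

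**Figure D5:**
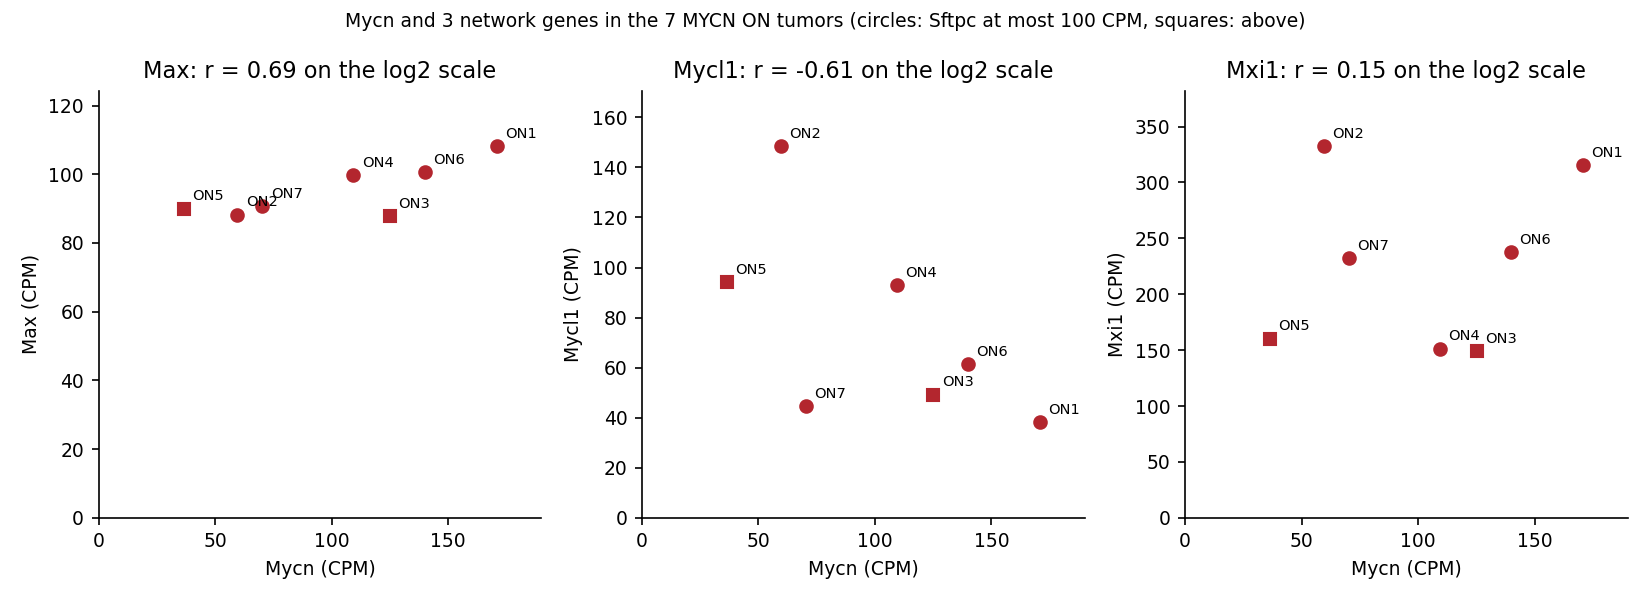
Max, Mycl1 and Mxi1 (vertical axes, CPM) against Mycn (horizontal axis, CPM) in the 7 MYCN ON tumors, labelled by number, with Pearson r of log2 CPM above each panel. Tumors 2 and 5 combine the lowest Mycn with high Mycl1, while tumor 4 has high Mycl1 (92.8 CPM) at 109 CPM of Mycn. Mxi1 shows no order with Mycn.

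The wider pathway was described from lists of cofactors and targets, by counts beside the 16% and 13.4% of all genes called higher and lower. The MLX arm is the parallel network in which MLX pairs with MondoA (Mlxip) and senses glucose. Of 4 tested genes of that arm and MYC relatives, Mlxip was higher (1.42-fold, edgeR adjusted p = 0.038), Mlx was lower (1.47-fold higher in MYCN OFF, edgeR adjusted p = 0.0152), and Mlxipl and Bmyc were not called. Mycs did not pass the filter. DESeq2 and limma voom also called 1 gene of the arm higher. Mlxip was not called by edgeR with other scaling, other filters or the lung or immune score, nor without MYCN ON tumor 1, 3, 4 or 7 or MYCN OFF tumor 1, 3 or 4. Mlx was not called with either score, nor without MYCN OFF tumor 4.

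Of 19 SIN3 and NCOR corepressor genes, through which MXD proteins and MNT act, 4 were higher, 0 lower and 15 not called by edgeR (0 lower at an unadjusted p below 0.05, and 0 by DESeq2). The histone deacetylase Hdac2 was at 364 ± 45.6 against 147 ± 20.8 CPM (log2 fold change 1.30, edgeR adjusted p = 5.00e-04), and the SIN3 subunit Sap30 was 2.55-fold higher. The scaffolds Sin3a and Sin3b were not called, with log2 fold changes of 0.42 and -0.30. The median over the list was 0.32. Library totals as the only scaling gave 3 corepressor genes lower in MYCN ON.

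Of 20 MYC cofactors, 7 were higher and 0 lower by edgeR (0 lower at an unadjusted p below 0.05, and 0 by DESeq2), with a median log2 fold change of 0.39. Wdr5, a chromatin subunit that anchors MYC, was at 133 ± 22.8 against 62.0 ± 11.1 CPM (log2 fold change 1.10, edgeR adjusted p = 0.00164), and Actl6a, a subunit of the TIP60 and BAF complexes, was 1.82-fold higher. Library totals as the only scaling gave 3 higher and 1 lower. The count of higher cofactors was 11 without MYCN OFF tumor 2 and 4 without MYCN OFF tumor 3 or 4.

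Of 11 partners of MGA in PRC1.6, 6 were higher and 1 lower, with a median of 0.69. Cbx3, the heterochromatin protein HP1 gamma, was at 821 ± 70.2 against 299 ± 44.7 CPM (log2 fold change 1.46, edgeR adjusted p = 3.28e-04). The ubiquitin ligase Rnf2 was 2.21-fold higher, while its paralog Ring1 was higher in MYCN OFF by 1.85-fold (edgeR adjusted p = 0.0181). Ring1 was not called with the lung score, nor without MYCN OFF tumor 4. L3mbtl2, another scaffold of the complex, had a log2 fold change of -0.0031 and was not called.

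Of 13 other E-box factors, Tfap4, known as a MYC target, was 2.74-fold higher (edgeR adjusted p = 0.00273) and Tfeb, the regulator of lysosomal genes, was 3.95-fold higher in MYCN OFF (edgeR adjusted p = 0.00355). The other 11 were not called. DESeq2, upper quartile factors and library totals each gave 4 lower genes in this list.

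Textbook MYC-induced genes had 21 of 24 higher and 0 lower by edgeR (0 lower at an unadjusted p below 0.05, and 0 by DESeq2). Their median log2 fold change was 1.52. The ranges of the groups did not overlap for 18 of 24, against 16.8% of all genes. Apex1, a base excision repair enzyme, was 6.31-fold higher and the nucleolar chaperone Npm1 5.86-fold. Npm1 and Cbx3 have processed pseudogenes that could share their reads, so their levels are less certain. The 3 not called were Tert, Bop1 and Ccnd2, the last with a log2 fold change of -1.38. Of 12 textbook MYC-repressed genes, 3 were lower and 0 higher by edgeR (0 higher at an unadjusted p below 0.05, and 0 by DESeq2), with a median of -0.89. The cyclin-dependent kinase inhibitor genes Cdkn1a and Cdkn2b were higher in MYCN OFF, by 3.48-fold and 3.97-fold (edgeR adjusted p = 0.00231 and 0.0094), and Gadd45g was the other. With the lung score as a covariate in edgeR, 18 of the induced genes were higher and 2 of the repressed genes lower, and the immune score gave the same counts. The lung and immune scores left 3 and 2 cofactors, 3 and 2 corepressor genes, and 4 and 3 PRC1.6 genes called higher.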

How the data were processed

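Per the submitters' processing notes, reads were handled with bcl2fastq 1.8.4, TopHat2 2.0.8b and HTSeq 0.6.1 on build mm9. Annotation and strand setting are not given in the sources used here. The authors deposited raw counts per gene symbol, with no normalization. HTSeq summary rows were left out of library sizes and tests; reads without an annotated gene were 14.8% to 21.5% of the records of a tumor and multiply aligned reads 9.15% to 20.9%.

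The tests used edgeR 4.0.16 under R 4.3.3: filterByExpr (minimum count 10), TMM factors and the robust quasi-likelihood test without covariate, with Benjamini-Hochberg adjustment over 15237 genes. Standard errors were taken from the log2 fold change and its F statistic, and 95% intervals from these. The biological coefficient of variation common to all genes tested was 53.7%. How far counting error limited precision for genes with few reads, such as Myc, was not tested. Alternatives used RLE and upper quartile factors, library totals, DESeq2 1.42.0, limma 3.58.1, other filters, a replicate block, marker scores (mean log2 CPM of the list, prior count 2), subsets by Sftpc, and each tumor left out. On simulated counts (15068 genes, 200 changed) edgeR recovered 13% of 2-fold and 64.6% of 4-fold changes. In the real counts 29.4% of genes were called, and Benjamini-Hochberg adjustment depends on the share of changed genes. The simulated rates therefore do not give the sensitivity of the real comparison. No pair of tumors of a group was alike within counting noise (smallest chi-square per gene 53.8). Exon lengths came from GENCODE M21 (GRCm38) and served only to scale levels.

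Members and lists were chosen with earlier results of these data known. From each cofactor or target list the 2 called genes with the smallest p per direction were named; Sin3a, Sin3b, L3mbtl2, Mlxipl, Bmyc, Tert, Bop1, Ccnd2, Gadd45g and Neurod1 were named after their values were seen. Permutations enumerated every order of the tumors. Some single marker genes are not reported here.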

Additional observations from a re-analysis of the deposited data

Results flagged for a closer look

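Mxd3 in MYCN ON tumor 2 stood apart from the other 6 MYCN ON tumors at 48.8 CPM, with the next highest tumor at 31.6 CPM. The gap was 0.572 of the range of the group, above the 95% critical value of Dixon's test. Chance flags about 1 in 20 groups, and 28 groups were examined here.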

How the results depend on the processing

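The count of network genes higher in MYCN ON was 5 and of those lower 2. With each tumor left out in turn they ranged from 4 to 5 and stayed at 2. Library totals gave 3 higher, an adjusted p below 0.01 gave 3 and 1, the lung score as a covariate gave 4 and 0, the immune score 2 and 0, and the tumors on either side of 100 CPM of Sftpc 0 and 0, where no gene of the series was called. Mxd3, not called, reversed its sign to 0.21 with limma voom, 0.17 with the replicate block, 0.71 in tumors with Sftpc above 100 CPM, and ranged from -0.79 to 0.55 with 1 tumor left out; the cause was not tested. The labels do not say whether replicate numbers pair the tumors. Deviations of same-numbered tumors correlated at -0.16, 0.46, -0.076 and 0.26. Of the MYCN OFF tumors, 2 of 4 correlated best with their own number, which does not settle whether a pairing exists. With the replicate block in tumors 1 to 4 of each group, 6 network genes were called, as without the block in these tumors, an alternative chosen after seeing the data; Mnt lost its call in both, as did Mlxip and Mlx, and Ring1 lost its call with the block. Among Mycn correlations within MYCN ON, 0 of 9 pairs were called under every alternative. Mxi1 reversed to -0.018 with library totals, and without the tumors farthest from the median Mycn level on the log2 scale Myc reversed to 0.25, Mxd4 to -0.16, Mnt to -0.39 and Mga to -0.38. With 1 tumor left out r ranged from -0.59 to 0.35 for Myc, -0.55 to 0.035 for Mxd1, -0.20 to 0.44 for Mxi1, -0.34 to 0.41 for Mxd4, -0.086 to 0.63 for Mnt and -0.40 to 0.66 for Mga. Without length scaling Mxi1 was 70.0% of MXD counts in MYCN ON and 35.4% in MYCN OFF, a scale on which genes of unequal length are not comparable. Over the alternatives without a tumor left out, list counts of higher genes ranged from 0 to 8 (corepressors), 0 to 11 (cofactors), 0 to 8 (PRC1.6) and 0 to 22 (MYC-induced genes), the 0 each coming from a subset by Sftpc, and with 1 tumor left out from 3 to 6, 4 to 11, 4 to 8 and 18 to 22. Myc rests on at most 154 reads per tumor.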

Other observations

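Across 11909 genes with a mean of at least 5 CPM in MYCN ON, the 5 genes whose log2 CPM followed Mycn most closely over the 7 MYCN ON tumors were Fbxo2 (r = 0.97), Srrm4 (0.96), Tars (0.96), Fam184b (0.96) and Coq3 (0.96). They are the extremes of a search over many genes in 7 tumors, and 68 genes exceeded an r of 0.9. Between the groups they did not share a direction: Tars, the threonyl-tRNA synthetase, was higher in MYCN ON (log2 fold change 0.85, edgeR adjusted p = 0.00179), Fbxo2, an F-box protein, was lower (-2.37, edgeR adjusted p = 0.0116), and Srrm4, Fam184b and Coq3 were not called, with log2 fold changes of 0.77, 2.35 and 0.98. No network gene was among the 5.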
